A study of Rattus norvegicus and Mus musculus with 12 samples.

Results

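The Toll-like receptors and their proximal signalling were followed through 10 genes, Tlr2, Tlr3, Tlr4, Cd14, Ly96, Myd88, Irak1, Irak2, Irak3 and Traf6, in RNA-seq libraries of primary articular chondrocytes. The genes were chosen by symbol. All 10 were found among the 28603 genes of the mouse table and 9 among the 19687 genes of the rat table, and Ly96 was not analysed here in rat. Each of them had enough counts to be tested. The 12 libraries fell into 4 groups of 3. The RC group held untreated chondrocytes of Sprague–Dawley (SD) rats, and the RM group held rat chondrocytes treated for 24 h with the inflammatory cytokine IL-1β at 20 ng/ml. The MC and MM groups were the corresponding untreated and IL-1β-treated mouse chondrocytes. The cells came from the cartilage of newborn animals, 24 h old, and were used at passage 1. The strain labels run from C57BL/6 to C57BL/8 over the MC replicates and from C57BL/7 to C57BL/9 over the MM replicates, whereas the methods name C57BL/6 for all mice. The comparison of each model group with its control asked how the chondrocytes of each species respond to the same inflammatory stimulus.

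Toll-like receptors recognise microbial and tissue-derived molecules. TLR2 works at the cell surface on lipoproteins, TLR4 at the surface on lipopolysaccharide with CD14 and with MD-2, the product of Ly96, and TLR3 inside endosomes on double-stranded RNA. Most of these receptors, and also the receptor for IL-1, recruit the adaptor MyD88, which assembles the IRAK kinases and passes the signal to the ubiquitin ligase TRAF6, and from there to NF-κB and the MAP kinases. TLR3 uses the adaptor TRIF in place of MyD88. IRAK3, also called IRAK-M, lacks kinase activity and is known as a brake on this cascade. In cartilage, fragments of degraded matrix are among the molecules reported to engage TLR2 and TLR4.

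The sequence before the start of 3 rat genes is shown because these genes stand for the main patterns in rat, with Tlr2 and Irak3 rising and Tlr4 not called. RefSeq windows on GRCr8, a later assembly than the one used for the counts, were given for 7 of the 10 genes, and the 250 bases before the annotated start were searched on both strands for 3 motifs. These were an NF-κB motif (GGG, any 3 bases, TTCC), an AP-1 motif (TGANTCA) and an interferon response motif (GAAA, any 2 bases, GAAA), which 4.53%, 6.34% and 3.41% of all 33469 rat windows of the same length hold. The windows run 5′ to 3′ along the gene, and capitals mark a match. They lie at chr2:171504558-171504807 (minus strand) for Tlr2, chr7:57598632-57598881 (minus strand) for Irak3 and chr5:85160997-85161246 (plus strand) for Tlr4.
Tlr2: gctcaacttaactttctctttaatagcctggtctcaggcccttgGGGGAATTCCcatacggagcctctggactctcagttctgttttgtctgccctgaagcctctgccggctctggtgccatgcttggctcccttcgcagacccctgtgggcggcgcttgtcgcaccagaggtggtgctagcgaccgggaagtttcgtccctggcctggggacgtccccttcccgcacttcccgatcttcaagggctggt
Irak3: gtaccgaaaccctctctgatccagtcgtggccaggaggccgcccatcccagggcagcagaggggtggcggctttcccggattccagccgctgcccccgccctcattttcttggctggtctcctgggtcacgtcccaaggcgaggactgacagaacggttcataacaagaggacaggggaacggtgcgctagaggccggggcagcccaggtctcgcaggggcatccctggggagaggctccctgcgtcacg
Tlr4: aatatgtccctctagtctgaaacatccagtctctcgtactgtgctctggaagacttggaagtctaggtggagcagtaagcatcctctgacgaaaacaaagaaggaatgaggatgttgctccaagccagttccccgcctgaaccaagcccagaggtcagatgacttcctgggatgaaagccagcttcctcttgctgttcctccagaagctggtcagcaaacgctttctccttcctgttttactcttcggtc
The Tlr2 window held 1 NF-κB match, 206 to 197 bases before the start. Of the other windows, that of Myd88 held 1 AP-1 match (TGAATCA, 208 to 202 bases before the start) and 1 interferon response match (GAAAGCGAAA, 16 to 7 bases before the start). Those of Irak3, Tlr4, Tlr3, Cd14 and Irak1 held none of these letters, which says nothing about sequence outside the window.

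The reads counted on genes numbered 20169272 to 25903459 per library in rat and 16841580 to 20048322 in mouse. The mouse libraries of a group differed little beyond sampling noise, with a chi-square per degree of freedom of 1.98 to 2.72 between libraries (1 is sampling noise alone), against 6.72 to 32.2 in rat. RC replicate 1 stood further from the other RC libraries (18.3 and 32.2) than these did from each other (14.1). The methods give 3 independent samples per group without saying whether they were separate animals, so P values measure the spread between these libraries. The 8 chondrocyte markers checked, Col2a1 and Acan among them, were expressed in both species. Their summed FPKM (fragments counted on a gene, scaled by its length and by the reads counted in the library) was 4020 to 4670 in RC and 1410 to 1480 in RM libraries, and 2060 to 2100 in MC and 167 to 180 in MM libraries, and all 8 were called lower in each species.

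In rat chondrocytes, 3 of the 9 genes rose with IL-1β and the other 6 were not called. Tlr2 rose 32.8-fold, Irak3 1.93-fold and Cd14 1.82-fold. None fell, also at an unadjusted P under 0.05 and with DESeq2 or limma (0 genes each). A gene was called at a Benjamini-Hochberg adjusted P under 0.05 in edgeR's quasi-likelihood test, over the 13303 rat genes tested, of which 18.3% were called higher and 16.8% lower in the RM group. The 3 of 9 genes called lie near the 35.1% called in either direction among all rat genes. The median log2 fold change of the 9 genes was 0.08, against 0.005 for all genes tested. Because the RNA was taken from whole cultures, more RNA per cell and more cells of one kind cannot be told apart.

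In mouse chondrocytes, all 10 genes were called, 8 higher and 2 lower in the MM group. Cd14 rose 15.5-fold, Tlr2 7.6-fold, Irak3 5.96-fold and Irak2 2.46-fold, and Tlr4, Traf6, Ly96 and Irak1 rose between 1.55-fold and 2.25-fold. Tlr3 and Myd88 fell. Of all 14774 mouse genes tested, 37.4% were called higher and 37.7% lower, 75% in all, so a call by itself says little in mouse. The median log2 change of the 10 genes was 1.11, against -0.016 for all genes tested. By the study's criteria for DEGs (unadjusted P under 0.05, a log2 change of 0.85 or more up or down, and 1 FPKM or more in some library), 6 of the 10 genes were upregulated and 0 downregulated in mouse, and 3 of 9 were upregulated in rat. Over all genes tested these criteria called 25.6% in mouse, 12.6% up and 13% down, and 8.54% in rat, 4.64% up and 3.9% down.

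The fold changes above are scaled by edgeR's TMM method, and the FPKM values below are not. The TMM factors were 1.1 for MC and between 0.905 and 0.911 for MM libraries, so a ratio of FPKM is smaller than the corresponding scaled fold. With library size alone, the median change moved to -0.295 for all mouse genes and to 0.83 for the 10 genes, and the share of higher calls among all mouse genes called moved from 49.8% to 31.4%. Each of the 10 log2 changes was lower with library size alone. Irak1 moved from 0.63 to 0.35, Ly96 from 0.75 to 0.47, Traf6 from 1.05 to 0.77 and Tlr3 from -0.83 to -1.11. Under both scalings the same 8 genes were called higher and the same 2 lower. In rat the scaling moved the median of all genes from 0.005 to 0.021.

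**Figure D1:**
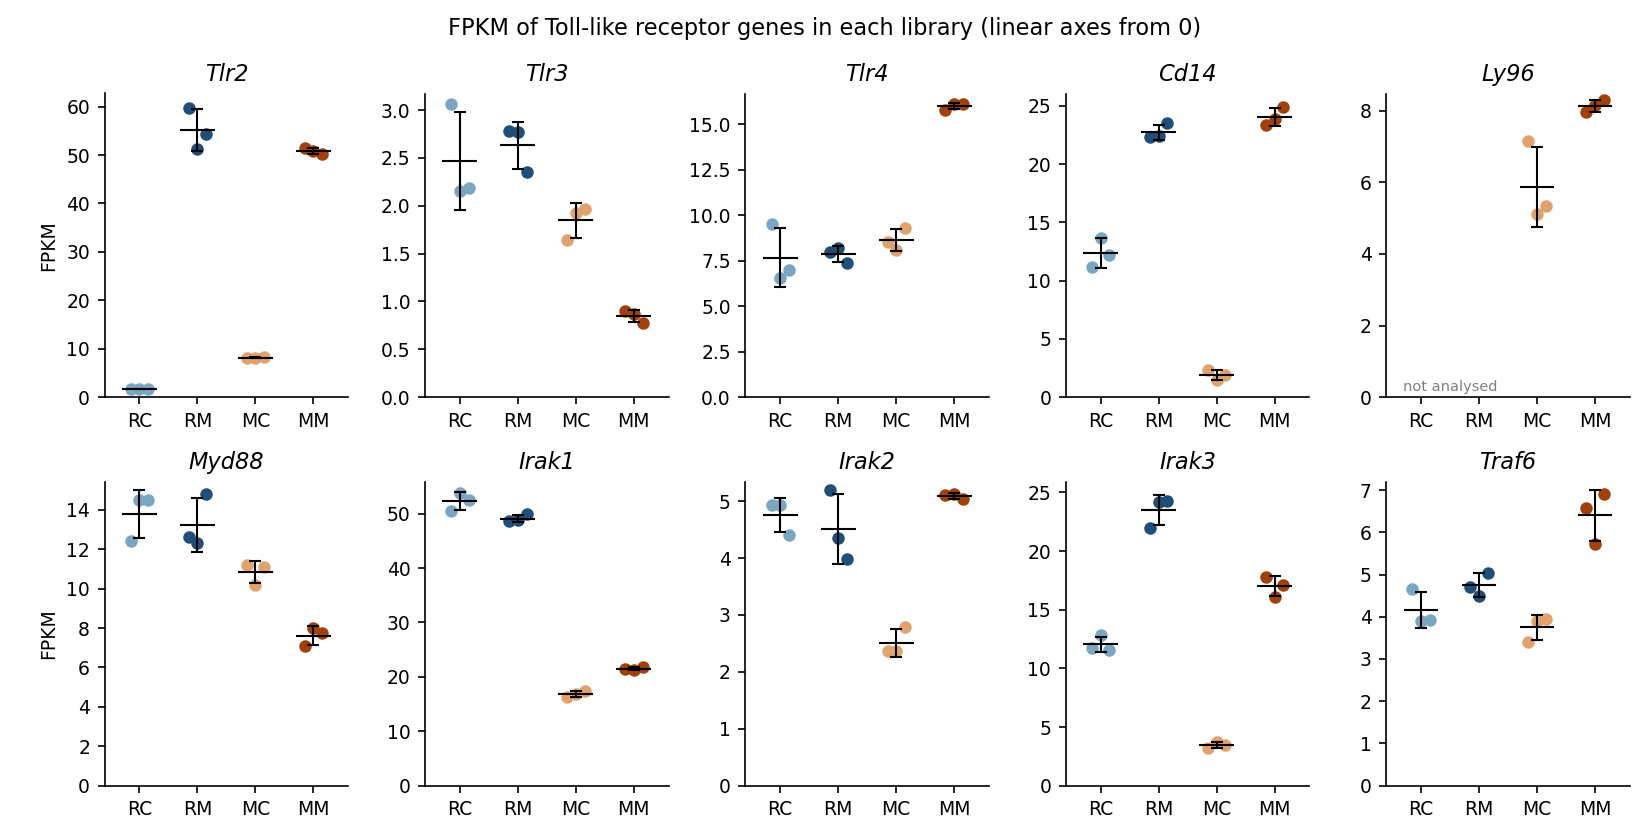
FPKM of each gene in every library (points), by group from RC to MM, with the group mean and SD (n = 3) as lines and bars. Tlr2 went from 1.61 to 1.69 FPKM in RC to 51.3 to 59.8 FPKM in RM libraries. In mouse it went from 8.06 to 8.2 FPKM in MC to 50.3 to 51.5 FPKM in MM libraries. For Tlr4 the groups overlap in rat and do not in mouse.

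Of Tlr2, Tlr3 and Tlr4, Tlr2 had the largest change in both species. In rat (ENSRNOG00000009822) its FPKM was 1.69, 1.61 and 1.68 in the RC libraries and 59.8, 51.3 and 54.4 in the RM libraries. The groups are far apart, and the gene ranked 27 among the rises of the 13303 genes tested. Its log2 fold change was 5.04 (standard error 0.099, adjusted P = 1.82e-10). In mouse (ENSMUSG00000027995, chromosome 3, 83836272 to 83841767) the FPKM was 8.06, 8.1 and 8.2 in the MC libraries and 51.5, 50.9 and 50.3 in the MM libraries. These groups are also far apart, with coefficients of variation of 0.904% and 1.16%. The counts were 411 to 444 per MC library and 2649 to 3109 per MM library. Counting error alone would give a larger variation on average, so these coefficients do not measure the precision. On the log2 scale the change was 2.93 (standard error 0.047, adjusted P = 4.14e-54). Thus the model groups of both species ended at means of 55.2 and 50.9 FPKM from control means of 1.66 and 8.12, levels set by separate tables and not tested against each other.

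Tlr4, the lipopolysaccharide receptor, was called higher in mouse and not called in rat. In rat (ENSRNOG00000010522) its FPKM was 9.51, 6.52 and 6.97 in the RC libraries and 7.98, 8.2 and 7.35 in the RM libraries. RC replicate 1 alone is high and the groups overlap. The fitted log2 change was 0.02 (95% interval -0.28 to 0.31, adjusted P = 0.946), and 0.19 without RC replicate 1 (adjusted P = 0.102). In mouse (ENSMUSG00000039005, chromosome 4, 66827584 to 66930284) the FPKM was 8.5, 8.09 and 9.3 in the MC libraries and 15.8, 16.1 and 16.1 in the MM libraries. These do not overlap, as is so for 80.3% of the mouse genes tested. By FPKM, 3752 of the 14774 mouse genes tested lay wholly higher in the MM group and 8115 wholly lower. For Tlr4 the log2 fold change was 1.17 (standard error 0.048, adjusted P = 1.09e-31).

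Tlr3, the receptor for double-stranded RNA, had a lower level than Tlr2 and Tlr4 in every group but RC. In rat (ENSRNOG00000021726) its FPKM was 3.06, 2.15 and 2.19 in the RC libraries and 2.78, 2.77 and 2.35 in the RM libraries. The groups overlap, again with RC replicate 1 highest. Its log2 fold change was 0.08 (95% interval -0.27 to 0.42, adjusted P = 0.736), and 0.25 without that library (adjusted P = 0.142). In mouse (ENSMUSG00000031639, chromosome 8, 45395665 to 45411080) Tlr3 fell from 1.64, 1.93 and 1.97 FPKM in the MC libraries to 0.9, 0.874 and 0.78 in the MM libraries. The groups do not overlap, like those of 80.3% of the mouse genes tested. The counts behind them were 146 to 184 and 71 to 94 per library. On the log2 scale the change was -0.83 (standard error 0.14, adjusted P = 2.91e-07), just short of the size the criteria for DEGs ask for, which it passed without MC replicate 1 (-0.91) or MM replicate 1 (-0.87). Mouse Tlr3 shares 381 exon bases (7.3%) with the antisense gene Gm45542.

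The co-receptor Cd14, which hands lipopolysaccharide to TLR4, rose in both species. Its levels come from separate tables and were not tested between species. In rat (ENSRNOG00000017819) its FPKM was 11.2, 13.7 and 12.2 in the RC libraries and 22.3, 22.4 and 23.5 in the RM libraries. All RM libraries lie above all RC libraries, and 47.8% of the rat genes tested are separated in one direction or the other. The fitted log2 change was 0.86 (standard error 0.09, adjusted P = 4.63e-05). It stands at the edge of the criteria for DEGs, which it missed without RC replicate 1 (0.78) or RM replicate 3 (0.84). In mouse (ENSMUSG00000051439) its FPKM was 2.3, 1.44 and 1.88 in the MC libraries, from 38 to 62 counts, and 23.4, 23.9 and 24.9 in the MM libraries, from 683 to 738 counts. The log2 fold change was 3.96 (standard error 0.11, adjusted P = 1.23e-41), the largest of the 10 genes in mouse under TMM scaling. Ly96, whose product MD-2 binds lipopolysaccharide on TLR4, was measured in mouse (ENSMUSG00000025779, chromosome 1, 16688051 to 16709611) at 7.15, 5.12 and 5.35 FPKM in the MC libraries and 7.96, 8.16 and 8.29 in the MM libraries. MC replicate 1 lies close to the MM libraries without reaching them. Its log2 fold change was 0.75 (standard error 0.14, adjusted P = 1.81e-06), and 0.91 without MC replicate 1.

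The adaptor Myd88 was called lower in mouse and not called in rat. In rat (ENSRNOG00000013634) its FPKM was 12.4, 14.5 and 14.5 in the RC libraries and 12.6, 12.3 and 14.8 in the RM libraries, which overlap. On the log2 scale the change was -0.07 (95% interval -0.29 to 0.14, adjusted P = 0.592). In mouse (ENSMUSG00000032508, chromosome 9, 119335934 to 119341411) the FPKM was 11.2, 10.2 and 11.1 in the MC libraries and 7.09, 7.98 and 7.77 in the MM libraries. The MM libraries lie below the MC libraries, and 80.3% of the mouse genes tested are separated in one direction or the other. The fitted log2 change was -0.23 (standard error 0.076, adjusted P = 0.00502), and it was no longer called without MM replicate 1 (-0.17, adjusted P = 0.0588). Its size depends on the scaling, like those of the other mouse genes, with -0.51 for library size alone. Mouse Myd88 shares 290 exon bases, 11.3% of its merged exons, with Acaa1a on the opposite strand, and whether the counting used the strand is not given in the sources used here.

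Of the IRAK genes, the brake Irak3 rose most. In rat (ENSRNOG00000004226) its FPKM was 11.7, 12.8 and 11.6 in the RC libraries and 22, 24.2 and 24.3 in the RM libraries. The groups do not overlap, like those of 47.8% of the rat genes tested. The log2 fold change was 0.95 (standard error 0.08, adjusted P = 1.04e-05). In mouse (ENSMUSG00000020227, chromosome 10, 120141648 to 120202130) the FPKM was 3.19, 3.75 and 3.45 in the MC libraries and 17.8, 16.1 and 17.1 in the MM libraries. Its log2 fold change was 2.58 (standard error 0.068, adjusted P = 5.79e-42). Mouse Irak3 shares 192 exon bases (5.2%) with Tmbim4 on the opposite strand.

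Irak1, the kinase that joins MyD88 early, was the most abundant of the 10 genes in the control groups of both species. In rat (ENSRNOG00000060869) its FPKM was 50.5, 53.8 and 52.5 in the RC libraries and 48.6, 48.8 and 49.9 in the RM libraries. The RM libraries lie just below the RC libraries, a separation that 47.8% of the rat genes tested show in one direction or the other, but the log2 fold change of -0.11 (95% interval -0.25 to 0.04) was not called (adjusted P = 0.225). In mouse (ENSMUSG00000031392, chromosome X, 74013914 to 74023918) the FPKM rose from 16.3, 16.9 and 17.4 to 21.5, 21.2 and 21.9, a log2 change of 0.63 (standard error 0.042, adjusted P = 1.83e-21).
Irak2, a kinase known for sustaining the signal, had 4.94, 4.93 and 4.41 FPKM in the RC libraries and 5.19, 4.35 and 3.98 in the RM libraries (ENSRNOG00000021817). The RM libraries span the RC libraries, with a log2 fold change of -0.10 (95% interval -0.37 to 0.17, adjusted P = 0.568). In mouse (ENSMUSG00000060477, chromosome 6, 113638467 to 113695026) it rose from 2.37, 2.36 and 2.79 FPKM to 5.1, 5.13 and 5.03 FPKM. The groups do not overlap, like those of 80.3% of the mouse genes tested. The log2 fold change was 1.30 (standard error 0.09, adjusted P = 2.15e-20).

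Traf6, the ubiquitin ligase on which the IRAK kinases act, was at 4.66, 3.91 and 3.92 FPKM in the RC libraries and 4.71, 4.48 and 5.04 FPKM in the RM libraries (ENSRNOG00000004639). RC replicate 1 again reaches into the RM range. On the log2 scale the change was 0.17 (95% interval -0.09 to 0.43, adjusted P = 0.281). In mouse (ENSMUSG00000027164, chromosome 2, 101678429 to 101701669) Traf6 rose from 3.41, 3.9 and 3.94 FPKM to 6.57, 5.73 and 6.91 FPKM, a log2 change of 1.05 (standard error 0.064, adjusted P = 5.39e-23).

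**Figure D2:**
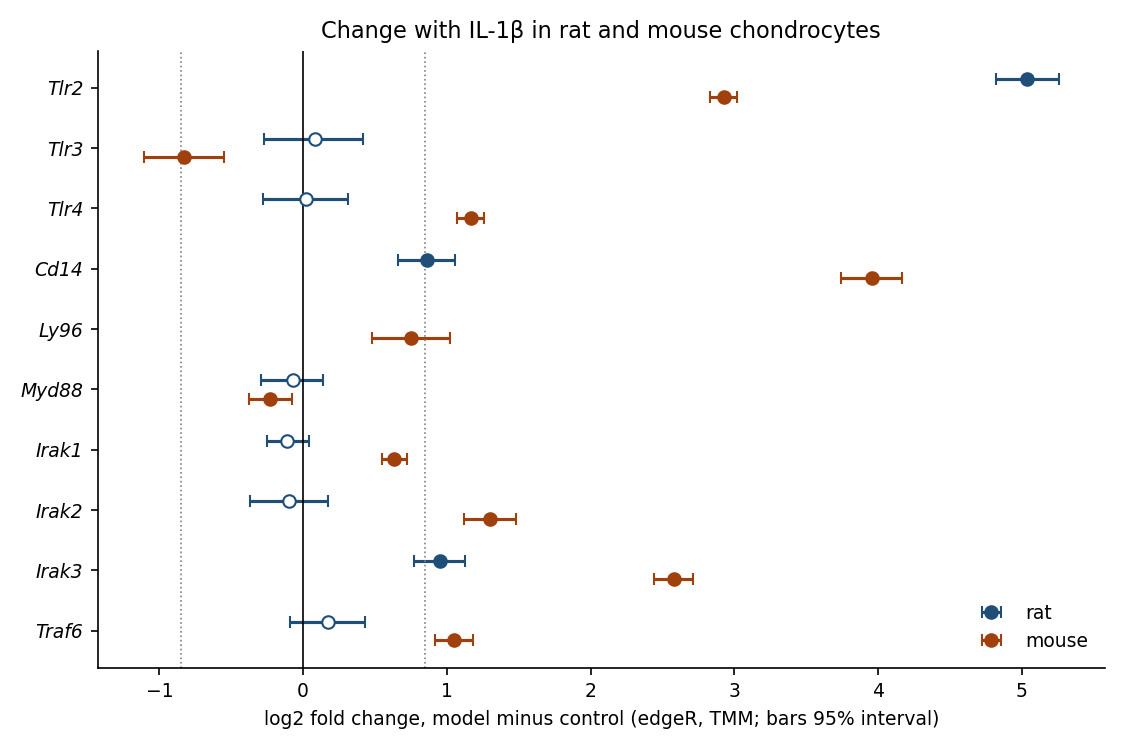
Log2 fold change of each gene, model minus control, in rat (blue) and mouse (brown), with 95% intervals from edgeR's fit (3 libraries against 3). Filled points have an adjusted P under 0.05, and dotted lines mark the size of 0.85 used by the criteria for DEGs. In rat the points of Tlr2, Cd14 and Irak3 are filled, and in mouse all 10 are.

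The change with IL-1β itself differed between the species for 8 of the 9 genes measured in both. The signed log2 change was higher in mouse for Cd14, Irak3, Irak2, Tlr4, Traf6 and Irak1 and lower in mouse for Tlr2, which rose less there, and for Tlr3, which was called lower in mouse and not called in rat. The test compared the log2 change in mouse with that in rat in 1 fit, with 1 estimate of the spread per gene shared by both species. Fitted apart, edgeR's common coefficient of variation between libraries was 0.106 in rat and 0.0318 in mouse. The fit held the 10912 genes tested in both species, of which 63.8% had an adjusted P under 0.05. Of all these genes, 31.4% were called with the higher value in mouse and 32.3% with the lower. Higher values made up 49.3% of the calls, and 28.9% with library size alone. The change in Cd14 was larger in mouse by 3.09 on the log2 scale (standard error 0.16, adjusted P = 2.82e-11), that is 8.53 times the rat fold. For Irak3 the difference was 1.62 (standard error 0.11, adjusted P = 8.3e-10) and for Irak2 1.40 (standard error 0.15, adjusted P = 3.69e-07). Tlr4 differed by 1.16 (standard error 0.15, adjusted P = 3.51e-06), Traf6 by 0.88 (adjusted P = 2.8e-05) and Irak1 by 0.74 (adjusted P = 6.58e-08). In the other direction, the difference was -2.11 for Tlr2 (standard error 0.1, adjusted P = 1.26e-11) and -0.91 for Tlr3 (standard error 0.21, adjusted P = 0.00111). For Myd88 it was -0.16 with a 95% interval of -0.42 to 0.11 (adjusted P = 0.287). With library size alone every difference was lower, among them 0.45 for Irak1, 0.59 for Traf6 and -2.41 for Tlr2. That of Myd88 was then -0.45 (adjusted P = 0.00462).

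**Figure D3:**
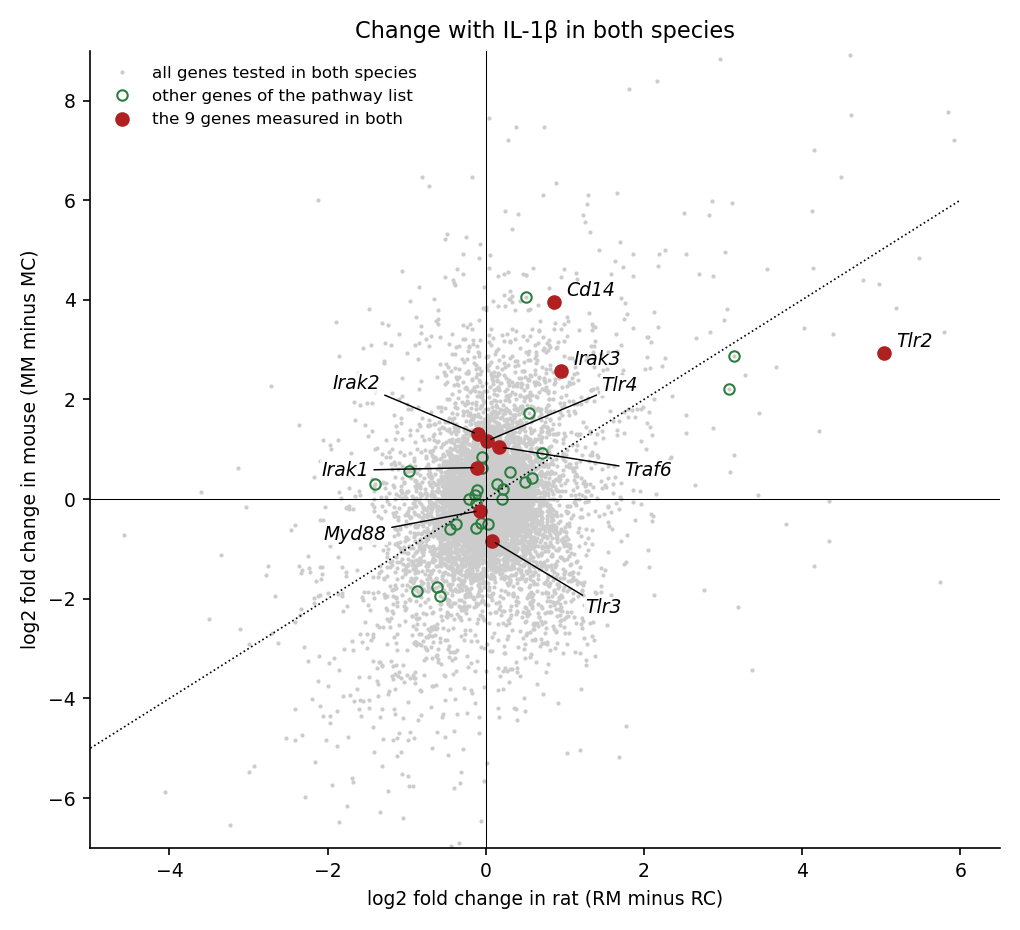
Log2 fold change in rat (x) against mouse (y) for the 10912 genes tested in both species (grey, 27 of them outside the axes), with the 9 genes in red and 27 other genes of the pathway in green circles. The dotted line marks equal change, with Tlr2 below it (5.04 in rat, 2.93 in mouse) and Cd14 above it (0.86 and 3.96).

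The order of levels by FPKM, which is per gene length, changed with IL-1β in both species. In the RC group Irak1 stood first (52.3 ± 1.64, SD, n = 3), followed by Myd88 (13.8 ± 1.18), Cd14 (12.4 ± 1.27) and Irak3 (12 ± 0.706), whose ranges overlapped from neighbour to neighbour. Tlr4 and Irak2 came next, then Traf6, whose range overlapped that of Irak2, and Tlr3 and Tlr2 stood last. In the RM group Tlr2 moved from the last place to the first (55.2 ± 4.33), above Irak1 (49.1 ± 0.69) without overlap, and Irak3 and Cd14 (23.5 ± 1.31 and 22.7 ± 0.642) shared the next places. In the MC group Irak1 (16.9 ± 0.516) and Myd88 (10.8 ± 0.534) led. Tlr4 and Tlr2 overlapped behind them (8.63 ± 0.617 and 8.12 ± 0.0734), and Cd14 and Tlr3 overlapped in the last places (1.87 ± 0.434 and 1.84 ± 0.18). In the MM group Tlr2 again led (50.9 ± 0.59), with Cd14 behind it (24.1 ± 0.73) and Irak1 next (21.6 ± 0.336), all without overlap. The FPKM of mouse Cd14 rests on a length of 1572 bases, against 1732 in the GENCODE M21 annotation. Its place relative to Irak1 may therefore depend on the length used. Tlr3 remained last (0.851 ± 0.0633).

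Ratios between genes of the same library do not depend on the scaling of libraries. They do depend on the gene lengths of each table, so they are read within a species only. Tlr2 stood at 0.178 to 0.247 times the FPKM of Tlr4 in the RC libraries and at 6.25 to 7.49 times in the RM libraries, and at 0.882 to 1 times in MC and 3.11 to 3.25 times in MM libraries. The ratio of Cd14 to Tlr4 went from 1.17 to 2.1 in RC to 2.74 to 3.2 in RM libraries, and from 0.177 to 0.271 in MC to 1.48 to 1.54 in MM libraries. The ratio of the brake Irak3 to the kinase Irak1 went from 0.221 to 0.239 in RC to 0.453 to 0.496 in RM libraries. In mouse it went from 0.196 to 0.222 in MC to 0.758 to 0.829 in MM libraries. The ratio of Irak2 to Irak1 overlapped between RC (0.0839 to 0.0978) and RM (0.0799 to 0.107) libraries and rose from 0.14 to 0.161 in MC to 0.23 to 0.242 in MM libraries. An exact permutation test of 3 against 3 ratios, two-sided, cannot give a P under 0.1, so these are given as ranges.

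**Figure D4:**
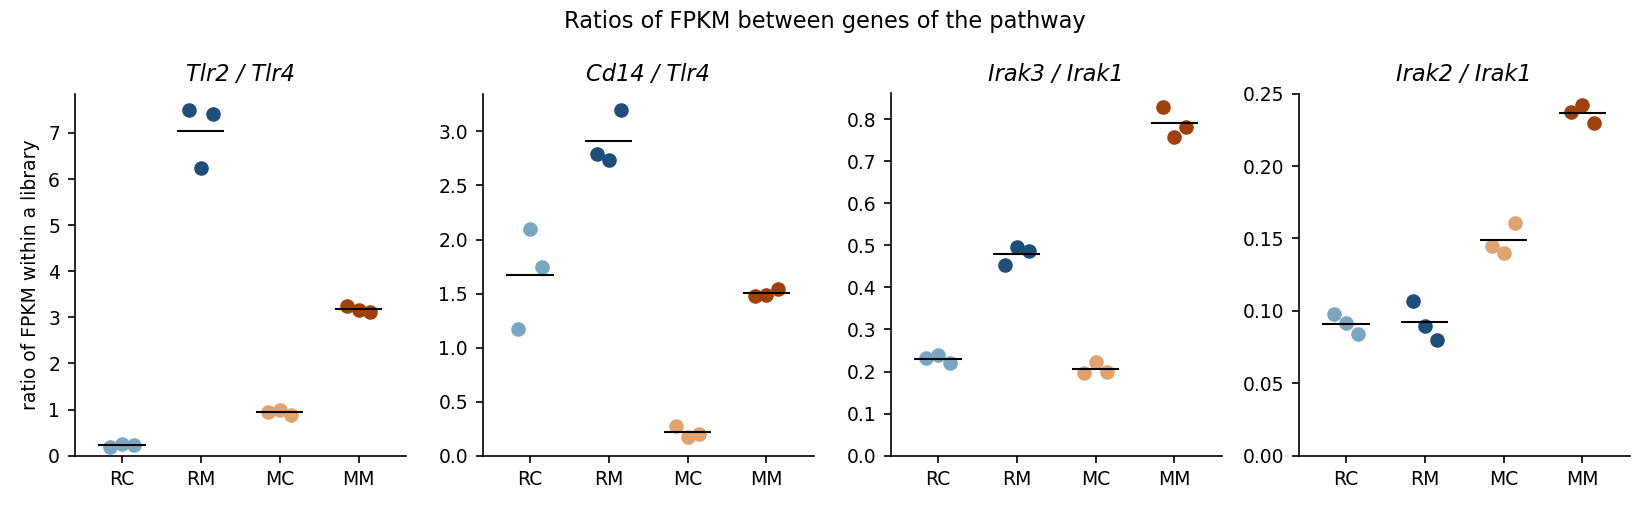
Ratio of FPKM between a pair of genes within each library (points, y axis, from 0) for the 4 groups, with the group mean as a line. The Irak3 to Irak1 ratio is 0.221 to 0.239 in RC and 0.453 to 0.496 in RM libraries. In mouse it is 0.196 to 0.222 in MC and 0.758 to 0.829 in MM libraries.

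The genes whose profile over the 12 libraries lay nearest to that of each receptor were sought by the distance of log2 CPM centred within each species, among 10911 other genes. Nearest to Tlr2 were Prg4, which encodes the lubricant lubricin (distance 1.12, log2 change 5.79 in rat and 3.36 in mouse), and Mmp9, a matrix metalloproteinase (distance 1.3, 5.19 and 3.83). Nearest to Tlr4 were Tarbp1 (distance 0.216, log2 fold changes of 0.03 and 1.18) and Map4k5 (0.235, -0.02 and 1.17). Nearest to Tlr3 were Srbd1 (0.267, 0.19 and -0.72) and Lactb (0.273, 0.21 and -0.84). Prg4 also stands in the list of fibroblast and synovial genes below, and all 12 libraries enter each distance, so a short distance follows in large part from a like change with IL-1β.

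Of 41 further genes of the pathway, 30 could be tested in each species. In rat 8 were called higher and 4 lower, against 18.3% and 16.8% of all genes, and in mouse 18 were called higher and 8 lower, against 37.4% and 37.7%. The median log2 fold change of those tested was -0.01 in the rat and 0.26 in the mouse. Among the other Toll-like receptors Tlr7 reached the highest group mean apart from Tlr5 and Tlr6, at 0.447 FPKM in the MM group, where it was called higher (log2 change 3.00 from 14 to 104 counts). In mouse Tlr7 passed the filter on low counts only through the MM group. Tlr6 was at 0.344 and 0.33 FPKM in rat and fell from 1.08 to 0.633 FPKM in mouse. Tlr1, a close relative of Tlr6, had 8 counts over the RC and 4 over the RM group, and 31 over the MC and 0 over the MM group. Whether reads matching both genes affected these values was not tested. Tlr5, the flagellin receptor, fell in both, from 3.03 ± 0.18 to 1.67 ± 0.0329 FPKM (SD, n = 3) in rat (log2 fold change -0.87, adjusted P = 0.000202) and from 1.74 ± 0.162 to 0.402 ± 0.0658 FPKM in mouse (-1.85, adjusted P = 8.02e-15).
Among accessory proteins, Lbp, which encodes the lipopolysaccharide-binding protein, rose from 10.6 ± 1.23 to 94.8 ± 6.88 FPKM in rat (log2 fold change 3.14, adjusted P = 9.43e-09) and from 2.39 ± 0.286 to 14.4 ± 0.0381 FPKM in mouse (2.88, adjusted P = 7.47e-45). The difference between the species was not called for Lbp (-0.26, adjusted P = 0.0816). Cd180, a relative of the Toll-like receptors, rose in rat from 15 counts over the RC group to 260 over the RM group (log2 fold change 4.04, standard error 0.31, adjusted P = 5.94e-06), up to a mean of 1.43 FPKM. It passed the filter on low counts only through the RM group, so its fold rests on few control counts. In mouse Cd180 had 0 counts in every library. Unc93b1, which escorts endosomal receptors, fell in both, with log2 changes of -0.45 in rat (adjusted P = 0.00682) and -0.61 in mouse (adjusted P = 1.24e-10).
Downstream, Map3k8, a kinase that links the pathway to ERK, rose from 0.556 ± 0.102 to 4.79 ± 0.133 FPKM in rat (log2 fold change 3.08, adjusted P = 3.82e-07) and from 1.44 ± 0.235 to 5.46 ± 0.0393 FPKM in mouse (2.21, adjusted P = 2.54e-29). Its change was larger in rat (difference -0.87, adjusted P = 0.00073). Ikbke, a kinase of the interferon arm, rose, with a log2 change of 0.55 in the rat (adjusted P = 0.000519) and of 1.73 in the mouse (adjusted P = 1.63e-36), and the difference of 1.18 was called (adjusted P = 1.33e-08). Irf7, an interferon transcription factor, fell in both, with a log2 change of -0.62 in the rat (adjusted P = 0.00554) and of -1.77 in the mouse (adjusted P = 3.14e-20). Peli2, a Pellino ubiquitin ligase, went in opposite directions, with -0.97 in rat (adjusted P = 0.00372) and 0.57 in mouse (adjusted P = 1.89e-13). In all, 14 of the 27 pathway genes tested in both species differed in their change, 7 with the higher value in mouse and 7 with the lower, against 63.8% of all genes.

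Tlr2, Tlr4 and Cd14 are also known from macrophages, so macrophage and leukocyte markers were read beside them, 11 with a row matched in rat and 12 in mouse of 13 listed. Their summed FPKM was 9.42 to 11.2 in RC and 9.67 to 14 in RM libraries, and 4.29 to 5.24 in MC and 8.42 to 9.84 in MM libraries, to which Cd68, a lysosomal protein, gave means of 3.96 and 7.63 FPKM in rat and 3.52 and 8.23 FPKM in mouse. Cd68 rose in both species (log2 fold changes of 0.92 and 1.50, adjusted P = 0.00121 and 2.37e-15). The markers ranged widely in level. Ptprc, the pan-leukocyte gene, had 20 counts over the RC and 16 over the RM group, and 3 over the MC and 1 over the MM group. Adgre1, a macrophage gene, had 18 and 23 counts in rat and 1 and 0 in mouse. Laptm5, a leukocyte lysosomal gene, stood higher in rat, at 531 counts over the RC group (mean 3.26 FPKM, above the 1.66 FPKM of Tlr2 there) and 178 over the RM group (1.08 FPKM), and fell (log2 fold change -1.61, adjusted P = 0.00023), whereas it had 21 and 16 counts in mouse. Csf1r, the receptor of a macrophage growth factor, fell in rat from 184 to 81 counts (-1.20, adjusted P = 0.00269) and rose in mouse from 104 to 153 (0.70, adjusted P = 0.0087). In the same groups Cd14 had 1450 and 2706 counts in rat and 153 and 2156 in mouse. Among 6 fibroblast and synovial genes, 2 were called higher and 1 lower in rat, and 3 higher and 3 lower in mouse, and their part in the changes above was not tested. Of 5 endothelial markers, the 4 matched in each species summed to at most 0.141 FPKM in rat and 0.504 FPKM in mouse, and the 4 muscle markers to at most 3.9 and 2.79 FPKM.

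**Figure D5:**
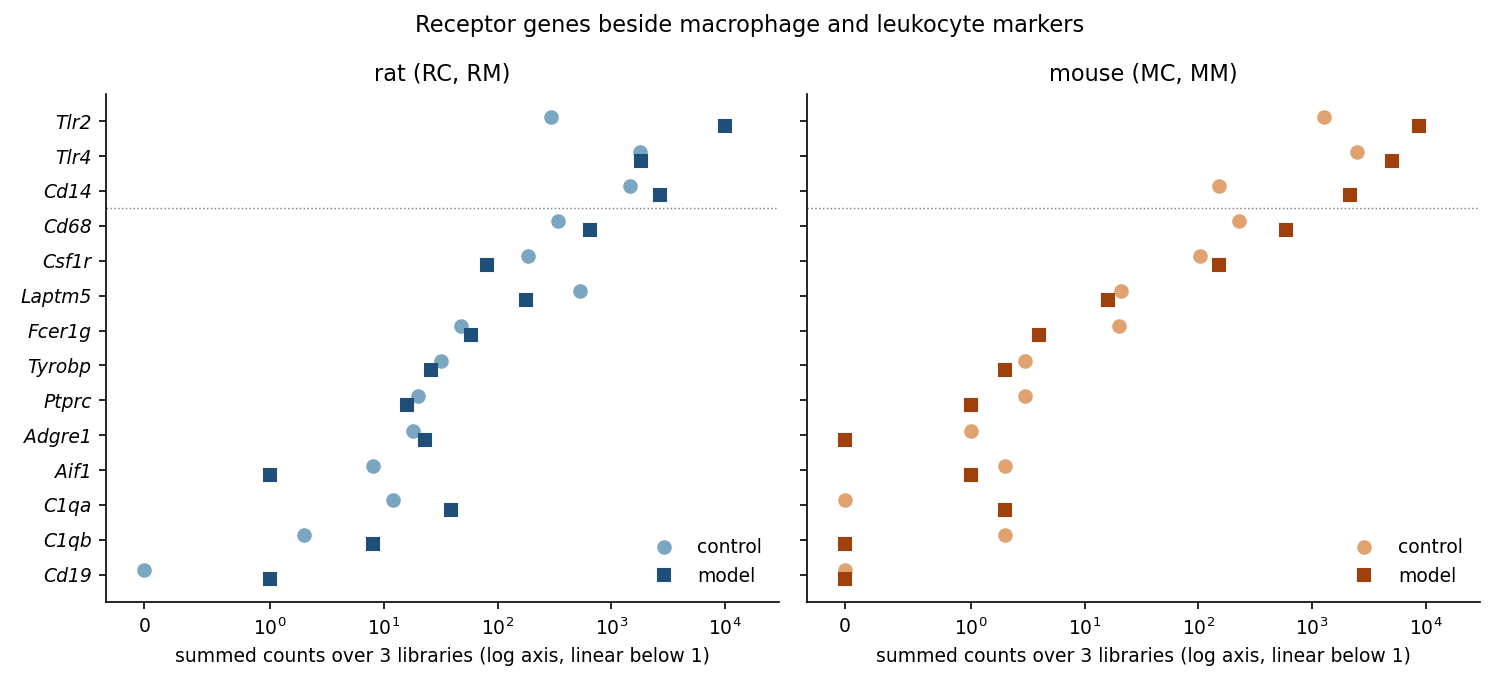
Counts summed over the 3 libraries of a group (log axis, linear below 1) for Tlr2, Tlr4 and Cd14, above the dotted line, and for 11 macrophage and leukocyte markers, in rat (left) and mouse (right). Cd14 rose from 153 to 2156 counts in mouse. Of the markers there, Cd68 (230 to 593 counts) and Csf1r (104 to 153) were called higher. Ptprc stood at 3 and 1 and Adgre1 at 1 and 0. The part of such cells in the rise of Cd14 was not tested.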

How the data were processed

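The authors deposited a table per species with raw, unnormalized counts for each Ensembl gene in each library, and beside them FPKM values made from these counts. Per the labels' processing notes, HISAT2 and HTSeq 0.11.2 and the builds GRCm38 and Rnor_6.0 were used. The strand setting is not given in the sources used here. Libraries were assigned to groups by their titles.

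The deposited counts were tested with edgeR 4.0.16 under R 4.3.3 (filterByExpr, TMM, glmQLFit and glmQLFTest), each species separately, with Benjamini-Hochberg adjustment over all genes tested. The difference between species was fitted over all 12 libraries on genes matched by a unique symbol regardless of case, scaled within each species. Alternatives were DESeq2 1.42.0, limma 3.58.1 on log2(FPKM + 1) or log2(FPKM + 0.1), other scalings, no filter on low counts, a replicate block and leaving out each library. The log2 CPM for profile distances had a prior count of 2. The methods name no program for the sequencing comparison. The fold change of 0.85 in the criteria for DEGs was read as a log2 value, which the methods do not state.

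The 10 genes and all lists were chosen with earlier results of these data known. Of the pathway list, the text names per species up to 3 rises and 3 falls of largest size with an adjusted P under 0.05 and 1 FPKM or more as the mean of a group, and for Tlr2, Tlr3 and Tlr4 the 2 genes nearest in profile. Other genes named for their low or opposite values were chosen after these were seen. Mouse coordinates are from GENCODE M21 (GRCm38), whose merged exon length equals the length behind the FPKM for 9 of the 10 genes. The exception is Cd14, with 1732 bases in GENCODE M21 and 1572 behind the FPKM. Rat promoter windows are from RefSeq on GRCr8, and no coordinates of rat genes on Rnor_6.0 were used. Counting error at these depths allows 0.116 to 0.178 CPM for a count of 0 in a library (3 counts), and covers counting error only.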

Additional observations from a re-analysis of the deposited data

Results flagged for a closer look

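The change with IL-1β differed between rat and mouse chondrocytes for 8 genes, tested as the log2 change in mouse minus that in rat with edgeR over 3 libraries per group. The difference was 3.09 for Cd14, 1.62 for Irak3, 1.40 for Irak2, 1.16 for Tlr4, 0.88 for Traf6 and 0.74 for Irak1. It was -2.11 for Tlr2 and -0.91 for Tlr3. Each of these 8 kept its direction and an adjusted P under 0.05 in all 19 alternatives, with the largest adjusted P at 0.0047 (Tlr3). Every alternative also shared 1 estimate of the spread per gene between the species. Among all genes tested in both species, 63.8% differed. Species cannot be told apart from anything else that differed between the rat and the mouse libraries.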

How the results depend on the processing

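Across the alternatives, 210 recomputed counts of genes stayed within 1.5 times their value and 9 did not, and 409 recomputed log2 values of single genes kept their direction and their side of the threshold while 9 did not. The 3 rat genes and the 8 mouse genes called higher were the same in number in every alternative. Without 1 library, the mouse genes called lower numbered 1 to 2 and those past the criteria for DEGs downwards 0 to 1, the latter also being 1 with library size alone and with limma on log2(FPKM + 0.1). At a log2 threshold of 1, 1 rat gene passed the criteria for DEGs, upregulated, and the limma test of log2(FPKM + 1) left 3 mouse genes, all 3 upregulated. Signs turned only for values that were not called. Tlr3 in rat ran from -0.02 to 0.25 without 1 library, reaching -0.02 without RC replicate 2 and 0 without RC replicate 3. Tlr4 in rat ran from -0.10 to 0.19, with -0.10 without RC replicate 2, -0.05 without RC replicate 3 and -0.02 without RM replicate 2. The Myd88 difference was called with library size alone (-0.45) and with limma (-0.40 and -0.44), where the FPKM carry no TMM scaling. The deviations of libraries with the same number correlated at -0.098 to 0.085 in rat, against -0.185 to 0.162 for those with different numbers. In mouse these were 0.001 to 0.015 and -0.01 to 0.006. So few libraries, in mouse near sampling noise, cannot exclude pairing. Numbers were not taken as pairs in the main fit. With the replicate block, 3 rat genes, 10 mouse genes and 8 differences were called, as without it, and 4534 rather than 4667 genes over the whole rat table. The rat table as a whole had 6251 genes called without RC replicate 1 and 3303 to 3854 without any other library.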
